A study of Triticum aestivum with 4 samples.

Results

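Of 61115 wheat probe sets on the arrays, 292 carried transcripts that rose with heat in the leaves of plants from unprimed parents and rose less, or not at all, in plants whose parents had been heat-primed. They were chosen by the measured intensities themselves. A probe set is a group of probes on the array read as 1 value, for 1 transcript or for several similar ones. It had to exceed the floor, an intensity of 12.3, on all 4 arrays, which left 27473. The log2 intensity then had to be at least 1 higher (2-fold) in NH than in NC, the change from PC to PH had to be above -1, and that change had to be at least 1 smaller than the change from NC to NH. Because all 4 arrays entered the choice, the differences below describe the members and support nothing further.

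RNA came from the flag leaf of Yangmai 16, a cultivar of bread wheat (Triticum aestivum), with 1 array for each of 4 groups. NC and NH were offspring of unprimed plants, PC and PH offspring of plants primed with heat before and after flowering, and the letter C or H says whether the offspring themselves stayed in a chamber with days at 26 °C and nights at 22 °C or were heated. Heated offspring had days of 34 °C and nights of 30 °C, for 6 days beginning 10 days after anthesis. The parents of PC and PH were warmed to 32 °C (nights 28 °C) for 2 days when they had 7 leaves and again with 9 leaves. A further 7 days at 34 °C (nights 30 °C) began 10 days after flowering. All groups share the cultivar and the sampled organ; the labels do not say how many plants stood behind an array. With no replicates, no value here has an error between samples, no test across samples could be made, and the number of arrays limits the precision.

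Leaves exposed to heat raise the transcripts of chaperones, of enzymes that mobilise stored carbohydrate and of many other genes, while growth and photosynthesis genes commonly fall. Priming is an earlier, milder or shorter exposure after which a plant, and in some cases its offspring, meets the same stress with a changed response. Such a change can lie in the level before the stress, in the level reached under it, or in both, and the members are described here along that line. In RNA from whole leaves, fewer cells of a type and less RNA per cell cannot be told apart.

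The arrays were alike in scale, with medians from 12.1 to 12.7 and 30265 to 30938 probe sets above the floor. The added poly-A control RNAs (36 probe sets) had median ratios of 1.87 for NH over NC and 0.812 for PH over PC, whereas the hybridization controls (27 probe sets) had 1.02 and 0.829; the part of the NH array in the members' pattern was not tested. The leaf label was checked with photosynthesis genes. For petC, PRK, PsbO and PsbP at least 1 probe set lay between 1275 and 8082 on every array, while 18 of the 34 leaf marker probe sets, most of them of rbcl, lay at or below the floor on all arrays. No probe set is named rbcS or cab. The summed intensity of the leaf markers was lower with heat, and less so in primed progeny, but the markers did not fall alike. The sum went from 59836 to 41970 in unprimed and from 63072 to 50739 in primed progeny. PRK, phosphoribulokinase of the Calvin cycle, went from 5887 to 1275 and from 6877 to 3493. The brightest leaf marker probe set, of rbcl, hardly changed, with 16201 in NC and 15575 in NH, against 16875 in PC and 16320 in PH. The next brightest, also of rbcl, had 15434, 15034, 15936 and 15238.5 in the same order. The part of the leaf markers in the members' pattern was not tested. Markers of another organ did move in the shape of the members: over 25 probe sets of 14 grain protein genes, 17 of which lay at or below the floor on all arrays, the summed intensity was 489.9 in NC and 1767 in NH, against 517 in PC and 751 in PH. Most of the NH excess came from the avenin-like gene avnla, whose brighter probe set went from 11.2 to 659 in unprimed and from 9.50 to 72.9 in primed progeny, while the gliadin and glutenin probe sets stayed at or below 24.9. None of the 25 is a member, and 2 anther genes had sums from 25.3 to 27.8. The part of grain-type RNA in the members' pattern was not tested.

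The members were of low to middling intensity without heat, and their median was highest on NH, which the rule favours. Over the 292, the intensity on NC ran from 12.3 to 1288 with a median of 42.2, and on NH from 26.5 to 6135 with a median of 210.3. On PC it ran from 13.5 to 2365 with a median of 54.2, and on PH from 13.1 to 3078 with a median of 103. The medians over all 27473 measured probe sets were 61.1, 64.5, 62.5 and 66.5 on NC, NH, PC and PH. The members were thus dimmer than the array as a whole on NC and brighter on both heated arrays. Over all 3172 probe sets that rose 2-fold from NC to NH, the medians were 64.1, 215, 68.7 and 186 in the same order. Beside these the members were close on NH and lower on NC, PC and PH.

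The heat change of the members had a median of 1.86 (log2) in progeny of unprimed plants and 0.56 in progeny of primed plants, against 0.05 and 0.05 over all measured probe sets. A rise of 2-fold or more from NC to NH, which the rule demands of members, was seen in 11.5% of the measured probe sets, and a difference of the heat changes of -1 or below in 2.07%. Of the 292, 91 (31.2%) still rose 2-fold or more from PC to PH, beside 9.99% of the measured probe sets. Another 140 changed between 0 and 1, and 61 were lower on PH than on PC. All 3172 probe sets that rose 2-fold from NC to NH, members included, had median heat changes of 1.44 in unprimed and 1.21 in primed progeny. Most of the 3172 thus passed 2-fold from PC to PH, a larger share than among the members. The rule itself favours that gap. Set as a share of the log2 rise in unprimed progeny, the rise kept in primed progeny had a median of 30.9%, with a range from -82.0% to 82.6%.

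**Figure D1:**
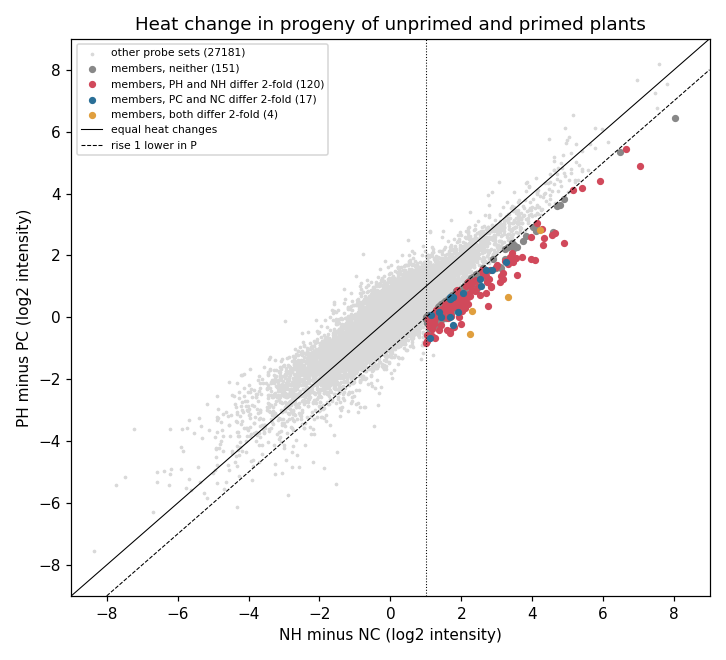
Heat change (log2 intensity) in progeny of unprimed plants, NH minus NC, against that in progeny of primed plants, PH minus PC, for each of the 27473 probe sets measured on all 4 arrays. Members (292) lie right of the dotted line at 1 and on or below the dashed line 1 under equality, and extend from changes near 1 to a rise of 8.03 in unprimed and 6.44 in primed progeny.

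The 3 groups by what was left of the rise differed in how far they rose in the first place. The 91 that still passed 2-fold in primed progeny had a median rise of 3.19 in unprimed progeny and 1.70 in primed. For the 140 in between these medians were 1.72 and 0.45. The 61 with a lower value on PH than on PC had 1.19 and -0.16, and so lay close to the threshold for the rise. Since the rule sets only a minimum for the rise and for the difference, a large rise can be weaker and still pass 2-fold, and a small one cannot.

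The steepest rises among the members belong to probe sets without a gene symbol. Ta.2631.1.S1_at stood at 22.7 in NC and 5934 in NH, against 35.4 in PC and 3078 in PH, a 262-fold rise in unprimed and an 86.9-fold rise in primed progeny. Ta.28631.1.S1_at had 27.4, 3593, 30.3 and 890.0, and TaAffx.7177.1.S1_s_at had 12.8, 1139, 15.5 and 635, in the same order of arrays. These transcripts stayed strongly heat-induced after parental priming, at a lower level on PH. Ta.22525.3.S1_x_at had 61.2, 6135, 35.6 and 1560, but a probe set of the same transcript cluster, Ta.22525.1.S1_x_at, had 40.7, 7686, 23.4 and 6797. A further one, Ta.22525.2.S1_x_at, rose by 5.39 and 5.38 (log2) in unprimed and primed progeny. In that cluster the weaker rise therefore depends on the probe set. Partners of other steep risers also missed the rule: Ta.2631.2.S1_x_at had a difference of heat changes of -0.81, and TaAffx.7177.4.S1_at, which rose 1.49-fold in unprimed and 1.28-fold in primed progeny, one of -0.22. Further partners were lower on PH than on NH but not measured on all arrays, since PC lay below the floor, and for Ta.2631.3.S1_x_at NC too. On NC, NH, PC and PH, Ta.22525.2.S1_at had 12.4, 722, 9.63 and 173, and Ta.2631.3.S1_x_at 11.0, 644, 6.75 and 283. TaAffx.7177.1.S1_x_at had 12.8, 790, 12.1 and 489. On these deposited values, TaAffx.7177.1.S1_x_at and Ta.2631.3.S1_x_at would miss the threshold for the difference even without the floor. The 4 steepest risers were picked after their values were seen, for the size of their rise.

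A weaker rise can come from a higher start, a lower end, or both, and most members combined them. The difference of the heat changes is the sum of 2 parts, the excess of PC over NC and the deficit of PH against NH, and the first made up a median of 31.7% of it. In 17 members PC and NC alone differed by 2-fold, in 120 PH and NH alone, in 4 both, and in 151 neither. The rule pulls on these counts: 0.233% of the measured probe sets were 2-fold higher on PC than on NC and 0.288% lower, and 1.20% were 2-fold lower on PH than on NH, while 20, 1 and 124 of the members were. PC exceeded NC by any amount in 244 members (83.6%) and in 52.1% of the measured probe sets, and PH lay below NH in 289 members (99.0%) and in 50.5% of the measured probe sets. The use of PC in the rule favours the first count and the use of NH and PH the second, so neither is evidence about priming.

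**Figure D2:**
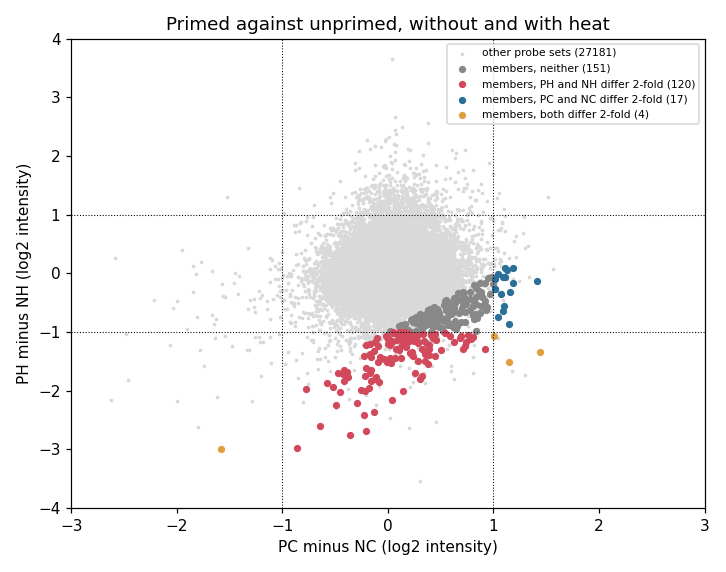
Difference between seed backgrounds without heat, PC minus NC, against that with heat, PH minus NH, both in log2 intensity, with dotted lines at 2-fold. The 120 members in red lie below -1 on the vertical axis, the 17 in blue right of 1 on the horizontal axis, and the 151 in grey between those lines, all with PC above NC and PH below NH.

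Among the 17 members whose level without heat was already higher after priming, the median intensity went from 26.6 on NC to 53.8 on PC, while NH and PH had 119 and 108. All 17 were higher on PC, the median of PH minus NH was -0.16, and the heat change had medians of 1.76 and 0.62. Ta.1050.1.S1_at had 332 in NC and 1129 in NH, against 735 in PC and 621 in PH, so that its level in unheated primed progeny lay above that in heated ones. Ta.6042.2.S1_x_at had 491, 1858, 1048 and 1185. Ta.10308.2.S1_at, at 12.3, 26.5, 25.3 and 15.9, lay near the floor throughout. The gene LOC606330 is the brightest of the 17.

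Among the 120 members whose level differed under heat alone, the medians of the unheated arrays were close and PH fell short of NH, both in part fixed by the class. Their medians were 42.4 on NC, 43.9 on PC, 245 on NH and 82.0 on PH, and the median of PH minus NH was -1.30. PC was above NC in 73 of the 120, with a median difference of 0.09 and a range from -0.86 to 0.92 over the 120. TaAffx.102572.1.S1_at had 15.7 in NC and 467 in NH, against 13.5 in PC and 72.3 in PH. Ta.1177.1.S1_at had 15.6, 265, 14.2 and 51.7. Both remained heat-induced in primed progeny, 5.34-fold and 3.64-fold, from starts near the floor. Ta.30767.1.S1_at, with 22.5, 153, 17.5 and 22.5, rose 6.80-fold in unprimed progeny and 1.28-fold in primed. Ta.21327.1.S1_at, with 72.0, 288, 136 and 118, had its highest level in heated unprimed leaves and was lower on PH than on PC.

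Of the 4 members past 2-fold at both temperatures, 3 were higher on PC and lower on PH. TaAffx.92223.1.A1_at, with 12.3 in NC and 57.8 in NH, against 33.3 in PC and 22.7 in PH, had the lowest difference of heat changes of all members, -2.79, from a level on NC at the edge of the floor. Ta.1835.1.S1_at had 12.9, 129, 28.6 and 45.3, and Ta.1997.1.S1_at, well above the floor, 101, 496, 204 and 236. The 4th, TaAffx.21593.1.S1_at, was lower in primed progeny at both temperatures, with 55.9 in NC and 1048 in NH, against 18.6 in PC and 132 in PH. Its rise of 7.07-fold after priming thus began from a lower level.

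The 151 members that passed 2-fold in neither comparison of seed backgrounds all had PC above NC and PH below NH, which follows from the rule. Their medians were 44.2 on NC, 64.6 on PC, 209 on NH and 125 on PH, with a median of 0.55 for PC minus NC and -0.70 for PH minus NH. Ta.21335.1.S1_a_at had 1095 in NC and 3273 in NH, against 1921 in PC and 1906 in PH, a 2.99-fold rise in unprimed progeny beside equal levels in primed. Ta.14488.1.S1_x_at had 161, 425, 289.5 and 252. Ta.521.1.S1_at, the brightest member by mean log2 intensity, had 1288, 2734, 2365 and 2432. In these, heated and unheated primed progeny stood between the levels of unheated and heated unprimed progeny.

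**Figure D3:**
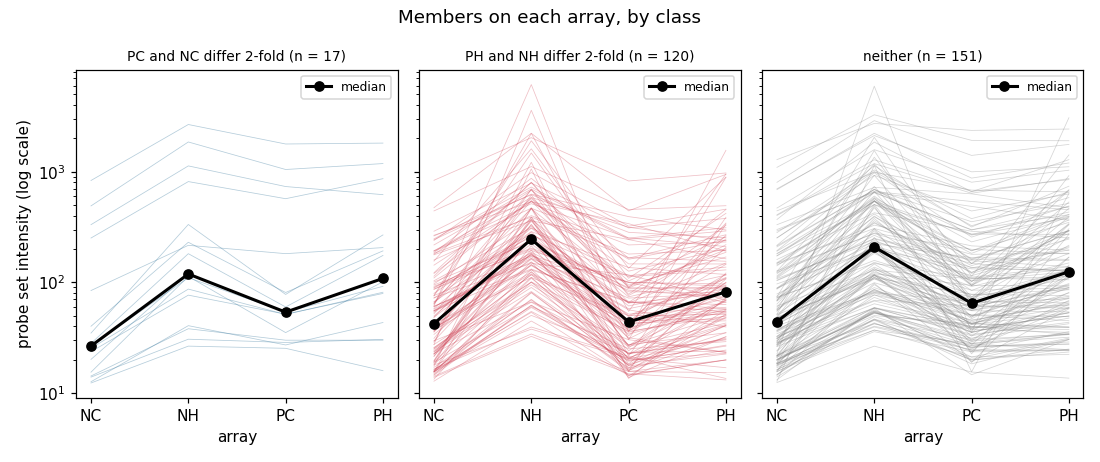
Intensity of each member on the 4 arrays (log scale), in panels by whether PC and NC alone (17), PH and NH alone (120) or neither pair (151) differed by 2-fold; the 4 that differed in both are not drawn. Thin lines join the 4 values of a probe set only to show which belong together, and black points are medians, which on PC are 53.8, 43.9 and 64.6.

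Gene symbols were available for 15 members, 5.14% of them beside 2.91% of measured probe sets. They belong to 11 genes, of which 1 has a functional name in the gene table and 10 a locus symbol alone, so that their roles are not given here. The named gene is 1-FEH (LOC543441), a fructan 1-exohydrolase, an enzyme that removes fructose units from fructans, the fructose polymers that wheat stores in stems and leaves and draws on when photosynthesis falls short. The heat rise of 1-FEH was 3.22-fold in unprimed and 1.47-fold in primed progeny, from intensities of 214 in NC and 689 in NH, against 353 in PC and 518 in PH. Both of its primed values lay between the unprimed ones. On the log2 scale PC minus NC was 0.72 and PH minus NH was -0.41, neither past 2-fold.

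Of the other named genes of carbohydrate storage looked at, those measured, 6-FEH, AGA.1 and AGP-S, did not follow 1-FEH. The genes looked at were put together with earlier results known. The fructan 6-exohydrolase 6-FEH lay near the floor on its one measured probe set, going from 20.2 to 16.8 with heat in unprimed and from 21.8 to 15.4 in primed progeny. AGA.1, a subunit of ADP-glucose pyrophosphorylase in starch synthesis, fell with heat from 966 to 117 in unprimed and from 1128 to 230.4 in primed progeny. AGP-S, another subunit of that enzyme, stayed between 425 and 524. The granule-bound starch synthase GBSS and the beta-amylase BMY1 were below the floor on all arrays, so whether they followed 1-FEH could not be seen.

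Among the genes with a locus symbol, LOC606308 rose most. Its probe set Ta.21262.1.A1_at had 76.5 in NC and 1906 in NH, against 134 in PC and 894 in PH, which is 24.9-fold in unprimed and 6.66-fold in primed progeny. A second one, Ta.21262.1.A1_x_at, had 56.6, 1353, 101 and 683. The pair has the same order of arrays, with unheated primed leaves above unheated unprimed ones and heated primed leaves below heated unprimed ones. Both belong to the same transcript cluster and were chosen by the rule, so they are not independent measurements.

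LOC606330 was the brightest member gene with a symbol, and its level hardly changed with heat in primed progeny. Ta.22317.1.S1_at had 833 in NC and 2672 in NH, against 1781 in PC and 1815 in PH. Its rise was 3.21-fold in unprimed and 1.02-fold in primed progeny. Ta.22317.1.S1_s_at had 802, 2896, 1405 and 1765, that is 3.61-fold and 1.26-fold. The excess of PC over NC passed 2-fold on the first (1.10 in log2) and not on the second (0.81), so the assignment of this gene to a class differs between its probe sets.

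For 5 genes PC minus NC lay between -0.17 and 0.17 on every member probe set, and the heated level was more than 2-fold lower after priming. LOC542793 was measured by 3 member probe sets. Ta.28131.1.S1_at had 247 in NC and 727 in NH, against 251 in PC and 312 in PH. Ta.28131.1.S1_x_at had 218, 698, 245 and 291, and Ta.233.1.S1_at, from another transcript cluster, 120.4, 547, 126 and 201. In all 3, PC minus NC lay between 0.02 and 0.17 and PH minus NH between -1.44 and -1.22. LOC543416 had 185 and 872 in unprimed progeny without and with heat, against 165 and 269 in primed, and rose 4.70-fold in unprimed and 1.63-fold in primed progeny.

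LOC543368 had 473 in NC and 2227 in NH, against 443 in PC and 946 in PH, and still rose 2.14-fold after priming. LOC543404 had 42.3, 253, 37.6 and 109, and rose 2.91-fold after priming. Its other probe set, TaAffx.51843.1.S1_at, is no member because NC and PC lie below the floor, and reads 55.5 on NH and 23.7 on PH. LOC606326 had 94.7, 204, 100.4 and 92.3, and did not rise in primed progeny. Its other probe set, Ta.5367.2.S1_x_at, with 44.4, 76.0, 53.4 and 35.9, had a difference of heat changes of -1.35 but rose by 0.77 in unprimed progeny, under the threshold.

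LOC542857, LOC542858 and LOC543463 resembled 1-FEH in having both primed values inside the unprimed range. LOC542857 had 370.0 in NC and 1851 in NH, against 660.3 in PC and 1286 in PH. LOC542858 had 209, 690.2, 271 and 432. LOC543463 was a member through 1 of 4 measured probe sets, Ta.22434.1.S1_x_at, with 403, 1184, 639 and 867 and a difference of -1.12. The other 3, Ta.22434.1.S1_at, Ta.6556.1.S1_at and Ta.6556.1.S1_x_at, had differences of -0.74, -0.64 and -0.63. All 4 thus ran the same way and 1 passed the threshold.

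**Figure D4:**
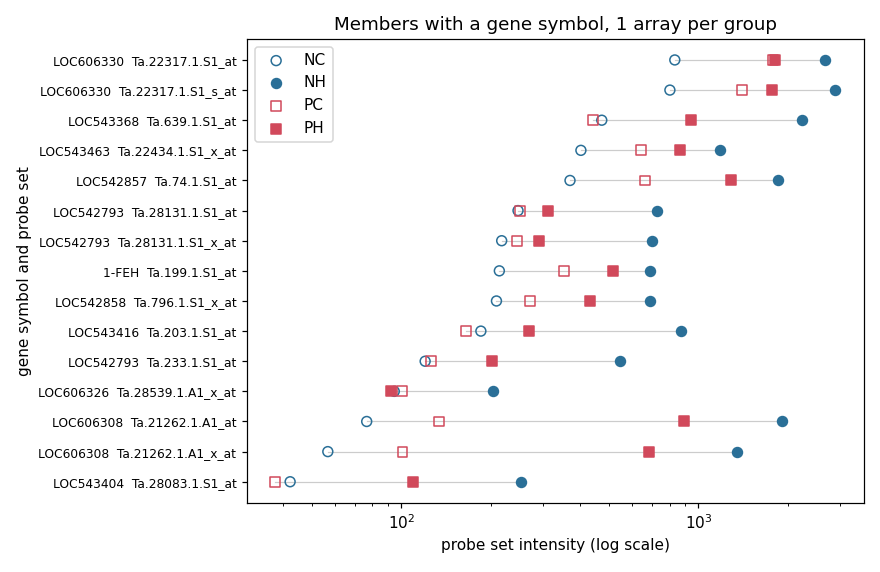
Intensity (log scale) of the 15 members with a gene symbol on each of the 4 arrays, circles for progeny of unprimed and squares for progeny of primed plants, open without and filled with heat. NH is the highest of the 4 values in all 15, and PH lies above PC in 14, the exception being LOC606326 at 92.3 and 100.4.

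The lists of gene names set for heat shock proteins, stress, defence, carbohydrates, seed storage, transcription factors, redox, methyl transfer, transport, proteases and kinases could hardly hold a member, since names alone were available and gene descriptions were not used here. Of the 11 lists, 5 matched no gene name, the carbohydrate list among them although 1-FEH is a member, and 3 had 1 measured gene each. That they held 0 members therefore says nothing about these gene groups. FKBP70, a peptidyl-prolyl isomerase of the heat shock list, had heat changes of 0.91 in unprimed and 0.72 in primed progeny. Rab15 of the stress list had 0.13 and 0.07, and the H+-ATPase ha1 of the transport list 0.06 and 0.16. None of these 3 passed 2-fold in any of the 4 comparisons. Among all 540 measured genes with a symbol, taken by their brightest probe set, 10 are members, 82 rose from NC to NH and 61 from PC to PH by 2-fold or more.

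Members sharing a transcript cluster, the number that the array design gives to related sequences, are not independent measurements. The 292 fall into 256 clusters, 29 of which hold more than 1 member (65 probe sets). In 21 of the 29 all members were in the same class, and in 25 PC minus NC had the same sign in all of them. Cluster Ta.7703 holds 4 members, all lower on PH than NH. Their values ran from 86.3 to 183 on NC, 232.7 to 389.5 on NH, 74.0 to 167 on PC and 87.5 to 155 on PH. Cluster Ta.6042 holds 3, all with PC above NC, of which Ta.6042.2.S1_x_at alone passed 2-fold there. Ta.6042.1.S1_a_at had 408 in NC and 1283 in NH, against 663 in PC and 849 in PH, and Ta.6042.2.S1_a_at 470, 1584, 804 and 1032. NH was the highest array for every member of both clusters. The order of all 4 arrays was the same for the members of Ta.6042, while in Ta.7703 the order of NC, PC and PH differed between probe sets.

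Other probe sets of the members' clusters, which the rule did not take, mostly ran the same way but less far, the latter in part fixed by the rule. There were 156, in 77 clusters. From NC to NH 55 of them (35.3%) rose 2-fold or more, beside 11.9% of the 11675 measured non-members that share a cluster with another probe set. The difference of heat changes was below 0 in 120 (76.9%), beside 54.4% of the 11675. Of the 55 that rose, 53 rose less in primed progeny, with a median difference of -0.59. For all 1387 rising non-members with a partner, 78.2% rose less, with a median of -0.26. The rule limits both medians. A rising probe set with a difference of -1 or below is a member, unless it fell 2-fold from PC to PH. The 156 share the arrays and partly the sequences of the members, and their agreement was not tested.

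By probe set type, 113 members (38.7%) were of the kinds that can match several transcripts, beside 31.6% of measured probe sets, and 44 (15.1%) carried the A tag of the design in place of S, beside 18.9%. In polyploid wheat, with near-identical gene copies on its subgenomes, the value of the first kinds may mix copies.

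The members were compared with the set given by the same rule after exchanging the seed backgrounds, that is a rise from PC to PH with a heat change at least 1 smaller from NC to NH. That set held 132 probe sets, against the 292 members. Of them 85 differed by 2-fold between PH and NH alone, 8 between PC and NC alone, 2 in both and 37 in neither. The members were 9.21% of the 3172 probe sets that rose 2-fold in unprimed progeny, and the exchanged set 4.81% of the 2745 that rose in primed progeny. Neither count has a replicate error, and both use all 4 arrays. Whether the array differences seen in the poly-A controls had a part in them was not tested.

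The larger the rise, the more often it was weaker by 2-fold or more in primed progeny. The rise used to sort the probe sets also enters the difference in the rule, so the rule itself favours this trend. The exchanged rule does so in the same way. Of 1719 probe sets that rose by 1 to 1.5 in unprimed progeny, 87 (5.06%) were members. The share was 11.9% of 690 for rises of 1.5 to 2, 14.8% of 480 for 2 to 3, 16.0% of 181 for 3 to 4, and 22.5% of 102 above that. In the exchanged set the shares were 4.85%, 5.38%, 3.86%, 2.91% and 6.76%, the last 2 resting on 3 of 103 and 5 of 74. For the smallest rises the exchanged rule thus took nearly the same share, and the larger share of members lay at rises above 1.5. Both sets use the same 4 single arrays, and the part of the NH array in this difference was not tested. A smaller heat change in primed progeny, of any size, was found in 77.7% of the 3172 rising probe sets, and the exchanged count was 51.3% of 2745.

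**Figure D5:**
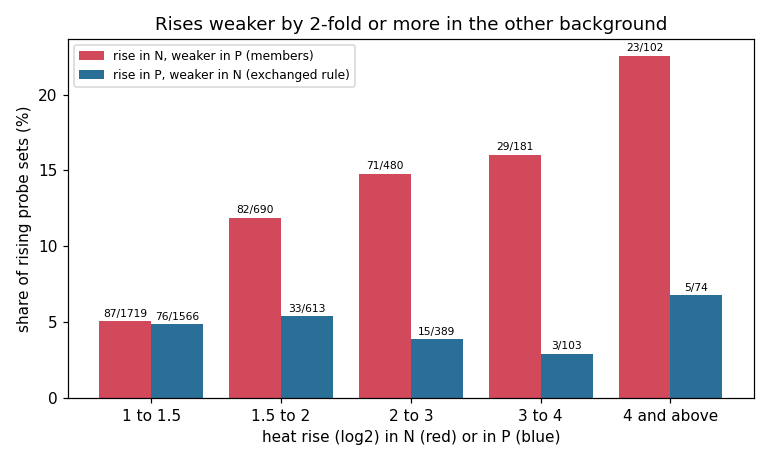
Share of heat-rising probe sets (%) whose rise was weaker by 2-fold or more in the other seed background, by size of the rise (log2). Red bars are members, rising from 5.06% to 22.5%, and blue bars the set from the exchanged rule, between 2.91% and 6.76%; the numbers above the bars are probe sets counted and probe sets rising.

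The thresholds run through a continuous range. Just inside the threshold for the rise lay Ta.4520.1.S1_at and Ta.14483.1.S1_x_at, both 2.01-fold higher on NH than on NC, and just outside Ta.8128.2.S1_x_at and Ta.19621.1.S1_at, both at 1.99-fold. At the threshold for the difference, TaAffx.42378.1.S1_at (19.8 and 53.5 in NC and NH, 31.3 and 42.3 in PC and PH) and Ta.22048.1.S1_at (151, 540.1, 164 and 293) were just inside, and Ta.11114.1.A1_at (24.1, 165, 27.1 and 92.5) and Ta.28292.1.S1_at (158, 483, 243 and 372) just outside. Their differences were -1.0004, -1.0014, -0.9993 and -0.9966 in that order. The lowest change from PC to PH among members was -0.83, and 1 probe set, Ta.23072.1.S1_at, at 100.3, 232, 155 and 66.4, met the other conditions but fell by 1.22 and was left out.

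The floor removed probe sets with the same shape. With values under the floor raised to it in place of being left out, 420 probe sets met the rule, 128 more than the members. Of the 128, 127 were at the floor on NC, PC or both and 25 on PH, so for most of them the size of at least 1 heat change is not known. NC and PC were both at the floor in 87, where a difference between them could not be seen. In 22 NC was at the floor and PC above it, and in 18 the reverse. The 128 include both probe sets of avnla and are not counted among the members.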

How the data were processed

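The deposited values are probe set intensity on a linear scale, made by the authors with MAS5, per the submitters' processing notes. Its version, its scaling and its calls of presence were not given in the sources used here. Each array took 6 µg of total RNA, per the labels' protocols, which describe biotin labelling while another label names Cy3. Of 61290 probe sets, 175 controls (111 AFFX and 64 RPTR) were left out. Values were kept as deposited, with no scaling. The floor was the median of all remaining values, and log2 differences were taken on probe sets above it on all 4 arrays. With 1 array per group there is no test, and no other columns were present. Names came from the platform annotation (1273 probe sets with 1 symbol, 0 with several, 59842 with none), updated through IWGSC CS RefSeq v2.1, which held 770 of 771 genes and was used for names only. No coordinates or sequences are given.

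Gene lists were patterns matched to symbols and synonyms, because the tables used hold no gene descriptions. The members and lists were chosen with earlier results of these data known. Text names all members with a symbol, the 4 with the lowest difference of heat changes per class, the 4 brightest, those at the thresholds, and other probe sets of those genes or clusters. The 4 steepest rises and clusters of several members were added later. The selection code was checked on simulated data with large changes placed in bright probe sets and little noise. That does not show how the rule behaves at the members' intensities, where the noise between arrays is not known. Scripts ran under Python 3.11.15 with pandas 2.3.3, numpy 2.4.6 and matplotlib 3.10.9. The alternatives tried were arrays scaled to a common median, quantile-normalized arrays, a floor of 4.20 (25th percentile) or 53.6 (75th percentile), values raised to the floor, a pseudocount equal to the floor, a 3-fold threshold, and leaving out probe set types for several transcripts.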

Additional observations from a re-analysis of the deposited data

Results flagged for a closer look

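At 19 probe sets, members and others of the same genes or clusters or near the thresholds, the single arrays ran in opposite directions, with NH above NC and PH below PC; the differences between backgrounds were not tested, and there is 1 array per group. PH minus PC (log2) was -0.12 for Ta.28539.1.A1_x_at and -0.57 for Ta.5367.2.S1_x_at, both of LOC606326. Among other members it was -0.24 for Ta.1050.1.S1_at, -0.67 for Ta.10308.2.S1_at, -0.21 for Ta.21327.1.S1_at, -0.55 for TaAffx.92223.1.A1_at and -0.20 for Ta.14488.1.S1_x_at. It was -0.011 for Ta.21335.1.S1_a_at, -0.41 for Ta.21335.2.A1_x_at, -0.00034 for Ta.7703.1.S1_a_at, -0.11 for Ta.7703.2.S1_x_at, -0.058 for Ta.4520.1.S1_at and -0.83 for Ta.14483.1.S1_x_at. Among non-members it was -0.37 for Ta.8128.2.S1_x_at, -0.017 for Ta.19621.1.S1_at, -0.15 for Ta.10308.3.S1_a_at, -0.21 for Ta.10308.3.S1_x_at and -0.29 for Ta.21327.3.A1_x_at. The change passed 2-fold in 1 of the 19, Ta.23072.1.S1_at at -1.22, which the rule left out. The poly-A controls, which enter no comparison, had a median ratio of 1.87 for NH over NC and 0.557 for PH over NH.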

How the results depend on the processing

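No paired analysis was possible because each group has 1 array. With median scaling 333 probe sets met the rule, 288 of them among the 292, and with quantile normalization 270, 261 of them shared, with 2 in the class that differs at both temperatures. The floor at the 25th percentile gave 424 members, including all 292, with 202 lower on PH alone, 10 differing at both temperatures and 214 in the exchanged set. The floor at the 75th percentile gave 120 members, all among the 292, with 5 differing without heat, 49 under heat, 1 in both and 65 in neither, and 32 in the exchanged set. Raising low values to the floor gave 240 that differed under heat alone. A pseudocount equal to the floor gave 183 members (181 shared), with 6 differing without heat, 2 in both and 88 in neither, and 46 in the exchanged set. At 3-fold, 44 members were left, with 0 differing without heat, 20 under heat, 0 in both and 24 in neither, 9 in the exchanged set, and medians of 2.80 for NH minus NC and -1.88 for the difference, by construction of the threshold. Without probe set types for several transcripts there were 179 members, 70 of them differing under heat alone and 93 in neither. They were 0.953% of the 18790 probe sets then measured, beside 1.06% as reported, and the exchanged set held 108. The ratio of members to the exchanged set was 2.21 as reported. It ran from 1.66, without the types for several transcripts, to 4.89 at 3-fold. The members with a symbol kept a negative difference wherever they were measured, which is no support, since they were chosen for it. Changing the floor, raising low values, the 3-fold threshold and leaving out probe set types do not alter their differences. LOC606308 and LOC606330 each had 1 probe set that met the rule in all 8 alternatives; 1-FEH met it in 7, all but the 3-fold threshold. LOC543404 met it in 4 of 8, and LOC606326 and LOC542858 in 5. The cause of these shifts was not tested. Low intensity limits the members below the 75th percentile, which the stricter floor left out.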
